A study of Mus musculus with 45 samples.

Results

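The BCL2 family genes described here are 10 named rows of a count table of 23420 genes, read in sorted T cells of mice that carried B16 melanoma, a transplantable mouse skin tumour. The members are the survival genes Bcl2, Bcl2l1, Mcl1, Bcl2a1b and Bcl2a1d, the BH3-only genes Bcl2l11, Pmaip1 and Bbc3, and the pore-forming genes Bax and Bak1. The list was drawn up by gene name, with earlier results of these data known. All 10 passed the filter on low counts, along with 14668 genes in all.

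BCL2 family proteins decide whether the outer membrane of the mitochondrion stays closed. BAX and BAK1 open it and release cytochrome c, the survival proteins hold BAX and BAK1 back, and the BH3-only proteins bind the survival proteins and lift that block. In regulatory T cells (Tregs), a CD4 lineage that depends on Foxp3 and holds immune responses in check, MCL1 and BIM (the product of Bcl2l11) are known to set survival, and cytokines of the IL-2 receptor family are known to adjust the balance.

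Tregs were sorted from the tumour or a non-draining lymph node, and effector T cells from the tumour of WT mice only. The Treg groups carry the titles' and genotype labels WT, HetWT (genotype label Het_WT), HetNrp1def (Het_Nrp1-) and N. The N samples bear the genotype label Het_Nrp1- too, and were kept apart by their titles because the design text names homozygous Nrp1-deficient mice as well as heterozygous ones. All tissues came from tumour-bearing mice, and which promoter or cell type drives the Nrp1 deletion, and the ages of the mice, were not given in the sources used here. Each Treg library was made from 5000 cells. No label says whether replicates are different animals, and the p-values therefore reflect the spread among these samples alone, part of which may be technical.

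The 45 libraries held 2945638 to 35787148 counts each (median 10248080). In each heterozygous Treg group 1 pair of libraries was close to identical (chi-square per degree of freedom 2.42 to 2.75, against 68.4 or more in the other 86 pairs within groups). Such a pair was added up and entered as 1 sample numbered 4 (3 with 4 in lymph node, ds1 with 4 in tumour). The 41 samples comprised 5 per WT, N and effector group and 4 per heterozygous group. The replicate number, which marks single sorting (2, 3 and 4) or double sorting (ds1 and ds2), accounted for 84.1% of the first principal component, and the group for 88.9% of the second. The 5 Treg markers summed to 1854 to 4918 CPM (counts scaled to library size) in lymph node Tregs, 3550 to 9491 CPM in tumour Tregs and 108 to 278 CPM in effector T cells, with no overlap between Tregs and effector T cells. Nrp1 itself lay at 103 to 290 CPM in WT tumour Tregs, 130 to 184 CPM in N and 105 to 260 CPM in HetNrp1def tumour Tregs, which overlap. In lymph node Tregs it lay at 265 to 412 CPM in WT, 144 to 338 CPM in N and 146 to 342 CPM in HetNrp1def. HetWT Tregs held 95.1 to 231 CPM in tumour and 219 to 1439 CPM in lymph node. Lymph node medians were 388 CPM in WT, 337 in HetWT, 187 in N and 151 in HetNrp1def. Tumour medians were 131, 147, 157 and 126 CPM in the same order. Which exons were deleted was not stated in the labels, so Nrp1 counts do not check the genotype labels.

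The first question was how the family differs between tumour and lymph node Tregs. Over the 4 genotype labels together, Bcl2 and Mcl1 were lower in tumour Tregs, and Bcl2l1, Bcl2a1b, Bcl2a1d and Pmaip1 were higher, so 4 members rose and 2 fell at an adjusted p below 0.05 in edgeR's quasi-likelihood test. Among all genes tested, 5.84% were higher and 5.37% were lower. The median log2 fold change was 0.19 over the 10 members and -0.08 over all genes. In bulk RNA, fewer cells of a type and less RNA per cell cannot be told apart.

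**Figure D1:**
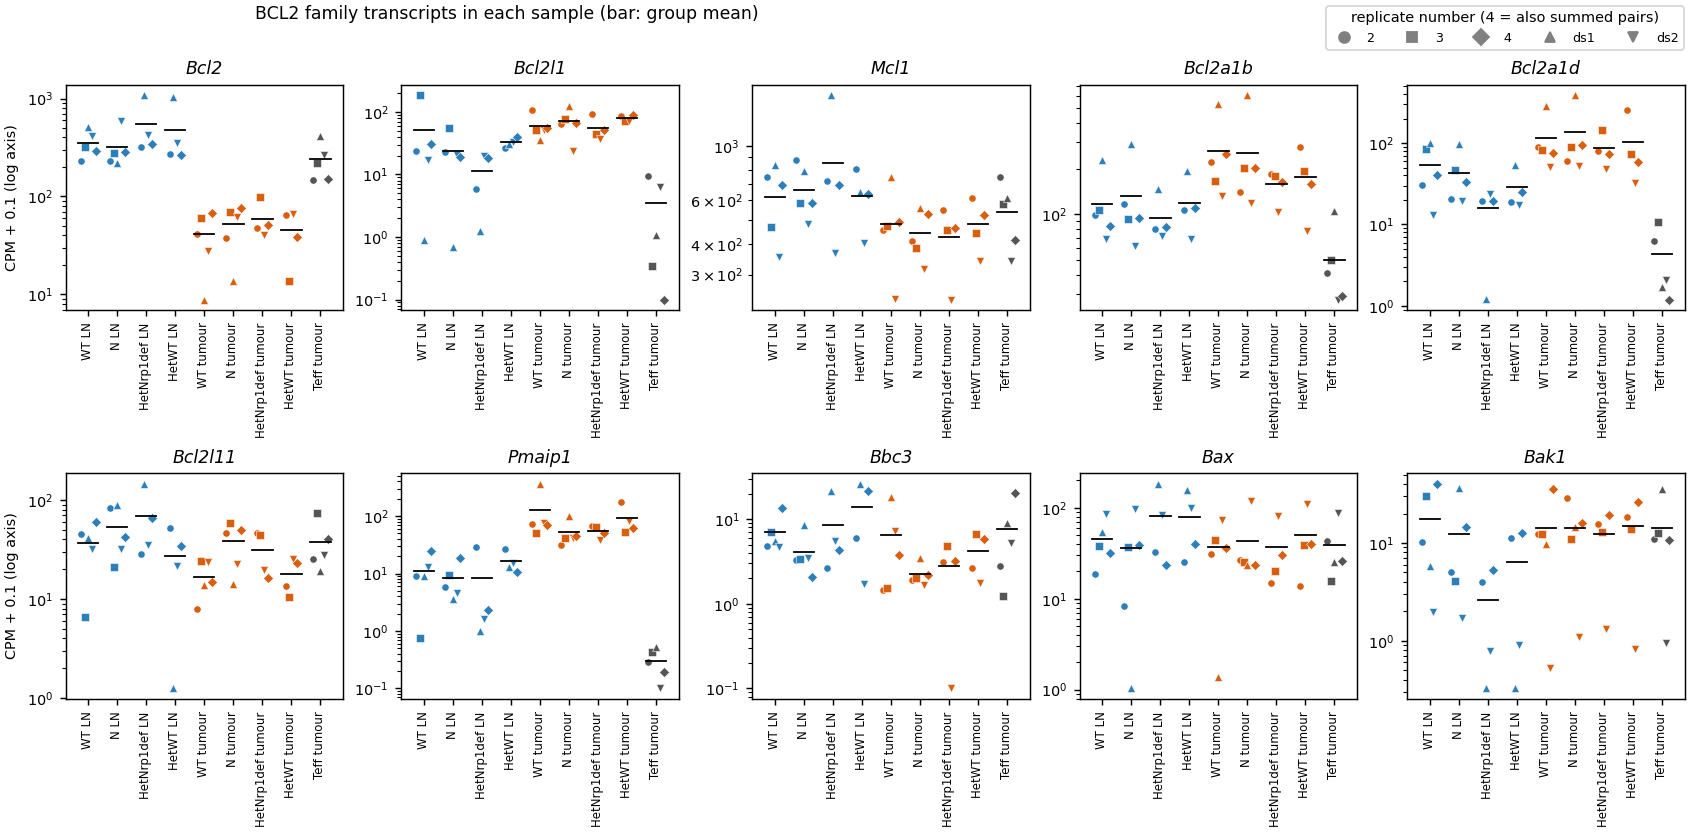
CPM of each gene plus 0.1, on a log axis, in all 41 samples. Points are samples (shape: replicate number), colours separate lymph node Tregs (blue), tumour Tregs (orange) and effector T cells (grey), and bars are group means. Bcl2 and Pmaip1 show no overlap between lymph node and tumour Tregs, while Bax and Bak1 spread widely within every group. The share of all genes without such overlap was not counted.

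Bcl2, the founding survival gene of the family (chr1:106538178-106714274, minus strand, GRCm38), showed the largest fall of the 10 members. Lymph node Tregs labelled WT held 228, 318, 288, 506 and 417 CPM in replicates 2, 3, 4, ds1 and ds2, and tumour Tregs labelled WT held 41.03, 59.5, 67.7, 8.75 and 27.6 CPM in the same order. In N Tregs the values were 230, 277, 286, 220 and 588 CPM in lymph node and 37.8, 69.7, 76.8, 13.7 and 61.3 CPM in tumour. Every tumour sample of both labels lay below every lymph node sample, with ds1 the lowest among the tumour samples of each. HetNrp1def Tregs held 318, 346, 1093 and 426 CPM in lymph node (replicates 2, 4, ds1 and ds2) and 47.1, 98.2, 51.4 and 40.1 CPM in tumour (replicates 2, 3, 4 and ds2). HetWT Tregs held 270, 266, 1028 and 353 CPM in lymph node, with the same numbering, and 64.9, 13.4, 38.8 and 66.01 CPM in tumour. Here too no values overlapped, and the highest lymph node values were those of ds1.

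Across the 18 lymph node samples Bcl2 ranged from 220 to 1093 CPM (median 318), and across the 18 tumour samples from 8.75 to 98.2 CPM (median 49.2). The log2 fold change was -3.08 (SE 0.27, adjusted p 1.0e-12), an 8.45-fold lower level in tumour. It fell in each label taken alone, by 3.10 in WT (adjusted p 0.00014), 2.63 in N (0.0016), 3.20 in HetNrp1def (0.0011) and 3.39 in HetWT (0.00088) on the log2 scale. In the WT contrast 0.361% of all genes were lower, in N 0.225%, in HetNrp1def 0.307% and in HetWT 0.075%. Bcl2 was lower in tumour in 16 of the 16 pairs of samples that share a label and a replicate number, with differences from -5.84 to -1.89. Within single replicate numbers the median difference ran from -4.92 (ds1, 2 pairs) to -2.20 (number 3, 2 pairs). In the authors' deposited log2 values the fold change was -1.85 over all labels (limma, adjusted p 5.7e-05) and -2.01 in N (0.044). It did not pass there in WT (-1.32, adjusted p 0.54), HetNrp1def (-1.61, 0.35) or HetWT (-2.46, 0.12).

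Mcl1, whose product is a short-lived survival protein that T cells need throughout life (chr3:95658788-95663176), changed little beside Bcl2. It ranged from 352 to 1610 CPM in lymph node Tregs and from 238 to 744 CPM in tumour Tregs, so the ranges overlap. The log2 fold change was -0.58 (SE 0.18, adjusted p 0.021), and Mcl1 was lower in tumour in 15 of 16 same-numbered pairs. That call was kept in 6 of 10 alternatives (-0.91 to -0.32). Those that lost it included no filter on low counts (adjusted p 0.076), double-sorted samples only and the authors' log2 values. It was also lost without any 1 of 3 samples: HetWT lymph node 2 (0.063), HetNrp1def lymph node ds1 (0.094) or HetNrp1def tumour ds2 (0.053).

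Bcl2l1, which encodes BCL-XL (chr2:152780668-152831728), stood at 23.9 to 125 CPM in tumour Tregs (median 65.7) and 0.582 to 188 CPM in lymph node Tregs (median 21.8). WT lymph node Tregs held 23.3, 188, 30.9, 0.793 and 17.0 CPM in replicates 2, 3, 4, ds1 and ds2, and WT tumour Tregs held 106, 52.1, 55.9, 36.1 and 51.6 CPM. A single WT lymph node sample, replicate 3, lay above all WT tumour samples, and the other 4 lay below them. The log2 fold change over all labels was 1.36 (SE 0.47, adjusted p 0.0498), close to the threshold. The call was kept in 5 of 10 alternatives (0.73 to 2.00). Those that lost it included no filter on low counts (adjusted p 0.064), single-sorted samples only (1.17, adjusted p 0.25), double-sorted samples only and the authors' log2 values. It was also lost in 30 of 36 fits that left out 1 sample each, which gave 1.28 to 1.77. The value was 1.77 (adjusted p 0.0060) without WT lymph node replicate 3. Tumour exceeded lymph node in 15 of 16 same-numbered pairs.

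Bcl2a1b and Bcl2a1d belong to the A1 genes, survival genes that NF-kappaB is known to induce and that mice carry in several near-identical copies on chromosome 9. The coding sequences of both are 516 bases long and differ at 6 bases (98.8% identity), and 40.0% of all 75-base stretches of the Bcl2a1b coding sequence recur in Bcl2a1d. The first 120 coding bases, from GENCODE vM21 transcripts, are shown to make the overlap visible, with the 3 differing bases in capitals.
Bcl2a1b: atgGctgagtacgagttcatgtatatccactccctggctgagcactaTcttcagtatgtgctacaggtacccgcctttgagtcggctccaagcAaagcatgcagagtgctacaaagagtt
Bcl2a1d: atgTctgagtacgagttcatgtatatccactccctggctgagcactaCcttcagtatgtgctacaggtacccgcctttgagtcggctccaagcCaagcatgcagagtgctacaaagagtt
The labels do not say how reads that fit both copies were counted, so the split between the rows is uncertain and their sum is the safer quantity.

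Bcl2a1b held 99.5, 107, 83.5, 228 and 69.2 CPM in WT lymph node Tregs and 223, 165, 251, 529 and 133 CPM in WT tumour Tregs (replicates 2, 3, 4, ds1 and ds2). Bcl2a1d held 30.9, 84.2, 41.03, 101 and 12.8 CPM in lymph node and 88.7, 82.8, 75.7, 284 and 50.3 CPM in tumour. For both genes ds1 was the highest sample of each tissue, and the tissues overlapped.

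Bcl2a1b (chr9:89199209-89207827, plus strand) ranged from 62.4 to 290 CPM in lymph node Tregs and 77.9 to 612 CPM in tumour Tregs. Its log2 fold change was 0.85 (SE 0.25, adjusted p 0.018), and tumour was higher in 16 of 16 same-numbered pairs although the ranges overlap. The call was kept in 5 of 9 alternatives (0.25 to 1.07). Those that lost it included DESeq2-style size factors in edgeR (adjusted p 0.052), double-sorted samples only and the authors' log2 values. Leaving out 1 sample at a time lost it only without N tumour replicate ds1 (0.055). Bcl2a1d (chr9:88723285-88731914, minus strand) ranged from 1.13 to 101 CPM in lymph node and 32.2 to 393 CPM in tumour, with a log2 fold change of 1.77 (SE 0.37, adjusted p 0.00062) and a higher tumour value in 15 of 16 pairs. Its call was kept in 7 of 9 alternatives (0.85 to 1.85), and lost with double-sorted samples only and on the authors' log2 values. With the 4 rows Bcl2a1a, Bcl2a1b, Bcl2a1c and Bcl2a1d summed before the fit, the log2 fold change was 1.09 (SE 0.25, adjusted p 0.0019). That sum does not depend on how the counted reads were divided among the 4 rows. It cannot show the effect of leaving out reads that fit several copies, if that was done. The share of Bcl2a1d in the reads of both rows had a median of 22.8% in lymph node Tregs, 30.6% in tumour Tregs and 6.80% in effector T cells.

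Both A1 promoters hold the AP-1 letters TGANTCA within 250 bases before the start, found in 6.75% of all 32851 promoter windows of that length, both strands searched. They are shown (GRCm38.p6 windows from RefSeq, strand of the gene, motif in capitals) because the 2 rows rose together and the surrounding bases are shared; each match lies outside annotated exons, upstream of the gene.
Bcl2a1b (chr9:89199089-89199135, plus strand): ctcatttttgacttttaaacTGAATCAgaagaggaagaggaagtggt
Bcl2a1d (chr9:88731938-88731984, minus strand): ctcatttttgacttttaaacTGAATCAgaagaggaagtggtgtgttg
A match is a description of letters and shows no binding.

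**Figure D2:**
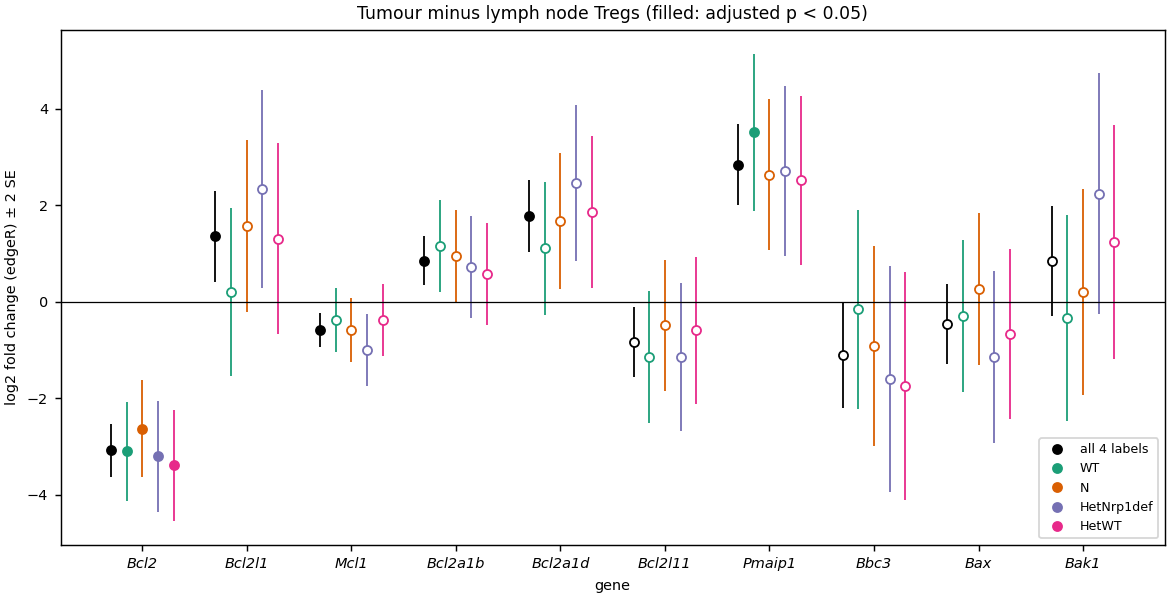
log2 fold change of tumour over lymph node Tregs for each gene (edgeR), with bars of 2 SE to each side, for the 4 labels together and apart. Filled points passed an adjusted p of 0.05: Bcl2 in all 5 contrasts, Pmaip1 over all labels and in WT, and Bcl2l1, Mcl1, Bcl2a1b and Bcl2a1d over all labels.

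The make-up of the survival transcripts differed between tissues. Compared per kilobase of exon, the A1 pair made up a median 39.2% of the summed level of Bcl2, Bcl2l1, Mcl1, Bcl2a1b and Bcl2a1d in lymph node Tregs (range 23.4 to 64.7%) and 68.9% in tumour Tregs (51.9 to 86.2%). Mcl1 held a median 46.6% in lymph node and 27.0% in tumour Tregs. It was the highest of the 5 survival genes per kilobase in 15 of 18 lymph node samples and in 1 of 18 tumour samples. Bcl2 held 8.36% and 1.19%, and Bcl2l1 held 1.30% and 2.85%. The order of these last genes per kilobase turned over: Bcl2 exceeded Bcl2l1 in 17 of 18 lymph node samples and in 2 of 18 tumour samples. In effector T cells Mcl1 was highest in all 5 samples, with a median share of 63.5%, and Bcl2 exceeded Bcl2l1 in all 5. These shares are descriptions without a test, and the A1 share takes both rows as counted. Shares and order depend on dividing by exon length (3418 bases in Mcl1, 817 in Bcl2a1b, 9157 in Bcl2 and 4586 in Bcl2l1). In CPM, without that step, the tumour Treg median was 460 for Mcl1 and 182 for Bcl2a1b, so Mcl1 stood higher. For Bcl2 and Bcl2l1 the tumour Treg medians were 49.2 and 65.7 CPM.

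Among the BH3-only genes, Pmaip1, which encodes NOXA, a partner of MCL1 and A1 and a known p53 target, stood apart. WT lymph node Tregs held 9.14, 0.645, 24.1, 8.88 and 12.8 CPM in replicates 2, 3, 4, ds1 and ds2, and WT tumour Tregs held 71.7, 50.4, 69.4, 367 and 74.7 CPM. In N Tregs the values were 5.73, 9.43, 18.7, 3.49 and 4.49 CPM in lymph node and 31.6, 41.02, 44.8, 101 and 42.2 CPM in tumour. The groups did not overlap in either label, and ds1 gave the highest tumour value in both. HetNrp1def Tregs held 28.3, 2.22, 0.901 and 1.52 CPM in lymph node (replicates 2, 4, ds1 and ds2) and 65.9, 63.6, 51.5 and 37.9 CPM in tumour (replicates 2, 3, 4 and ds2). HetWT Tregs held 26.7, 10.6, 12.7 and 15.01 CPM in lymph node and 175, 52.1, 62.5 and 82.1 CPM in tumour. All 18 tumour samples lay above all 18 lymph node samples, whose highest value was 28.3 CPM against a lowest tumour value of 31.6 CPM. Bcl2 was apart in the opposite direction, and the share of all genes without overlap between the tissues was not counted.

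The log2 fold change of Pmaip1 over all labels was 2.84 (SE 0.42, adjusted p 1.4e-06), a 7.17-fold higher level in tumour, and 16 of 16 same-numbered pairs were higher there. In WT it was 3.51 (adjusted p 0.015), against 0.511% of all genes called higher in that contrast. That call was lost without WT tumour ds1 (2.60, adjusted p 0.12), WT lymph node 2 (0.058) or WT lymph node ds1 (0.051), and in single-sorted samples only (2.54, adjusted p 0.14). In N the log2 fold change was 2.63 (adjusted p 0.11), in HetNrp1def 2.71 (0.16) and in HetWT 2.51 (0.32), where 0.566%, 0.348% and 0.164% of all genes were called higher. DESeq2 called it in N (2.78, adjusted p 0.0079) and HetNrp1def (2.72, 0.019), and edgeR on the 45 libraries as deposited called it in HetNrp1def (2.91, 0.030). Without HetNrp1def lymph node 2, its value in HetNrp1def was 5.18 (adjusted p 0.0042). In the authors' deposited log2 values its fold change over all labels was 1.19 (limma, adjusted p 0.13). The call of Pmaip1 over all labels was also lost with double-sorted samples only.

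Bcl2l11, which encodes BIM, a death activator that binds every survival protein of the family, ranged from 1.15 to 146 CPM in lymph node Tregs and 7.77 to 58.4 CPM in tumour Tregs. Its log2 fold change of -0.84 (SE 0.36, adjusted p 0.14) did not pass in edgeR and did in DESeq2 (-0.89, adjusted p 0.040), and 11 of 16 same-numbered pairs were lower in tumour. Bbc3, which encodes PUMA, another p53 target, ranged from 1.60 to 26.3 CPM in lymph node and 0 to 18.1 CPM in tumour, with a log2 fold change of -1.11 (SE 0.55, adjusted p 0.22; DESeq2 -1.20, 0.040). Both sets of ranges overlap.

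Bcl2l11 and Bbc3 are known targets of FOXO factors, and both have the FOXO letters TGTTTAC within 250 bases before a RefSeq start. The other 7 members with a promoter window do not. Of all promoter windows 3.17% hold the letters, both strands searched. That share is per window, and genes with more windows have more chances of a match. Bcl2l11 has 2 windows, Bbc3 and Bcl2l1 have 3 each, and the other members with a window have 1 each. The 47 bases around each match (GRCm38.p6, plus strand, which is the strand of both genes) are shown with the match in capitals, on the opposite strand in Bcl2l11. The Bcl2l11 match lies upstream of the gene, and the Bbc3 match lies inside the annotated gene and outside its exons.
Bcl2l11 (chr2:128125791-128125837): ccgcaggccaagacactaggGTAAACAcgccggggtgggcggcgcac
Bbc3 (chr7:16310074-16310120): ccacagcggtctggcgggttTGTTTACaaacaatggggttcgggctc
The STAT letters TTCNNNGAA were in none of the 9 members with a window (7.02% of all promoters), and the HIF letters ACGTG were in Bbc3 and Bax (16.6% of all promoters). No match says only that these letters are not in the window.

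**Figure D3:**
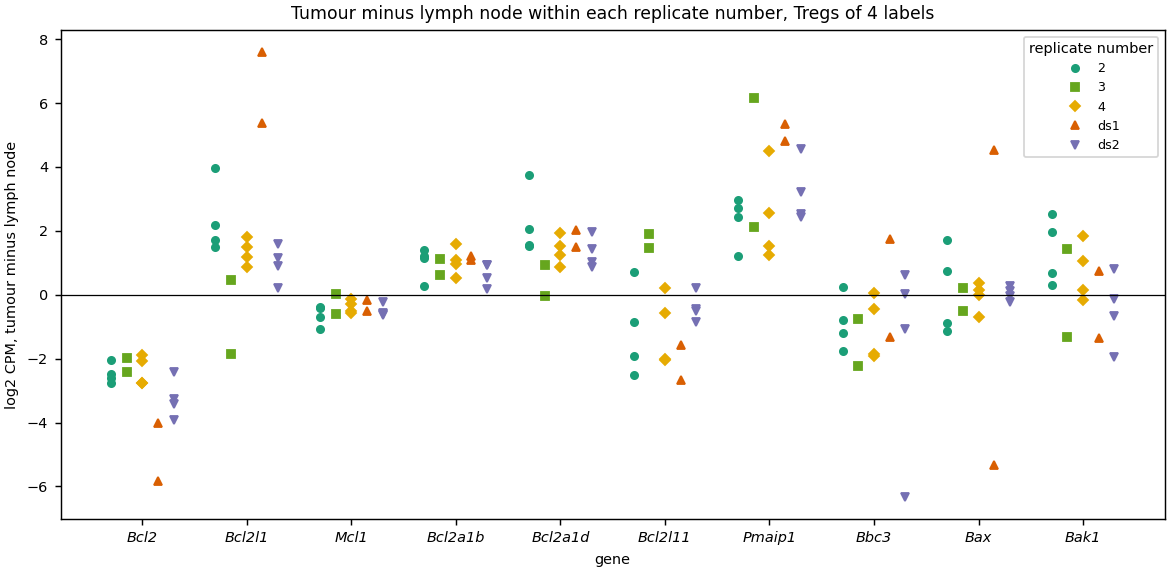
Difference in log2 CPM, tumour minus lymph node Tregs, for each of the 16 pairs of samples with the same label and replicate number (colour and shape: replicate number). Bcl2 is below 0 and Pmaip1 and Bcl2a1b are above 0 in all 16 pairs, while Bax has 8 pairs on each side of 0. No label states that same-numbered samples are paired.

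The pore-forming genes Bax (chr7:45461697-45466898) and Bak1 (chr17:27019810-27029009) did not pass in any contrast between groups. Their log2 fold changes between tumour and lymph node were -0.46 (2 SE to each side: -1.30 to 0.37) and 0.84 (-0.30 to 1.98). The ds2 samples stood apart from those numbered 2, 3 and 4 for both genes, while the ds1 samples spread widely. In the 9 ds2 samples Bax stood at 72.8 to 118 CPM and Bak1 at 0.424 to 1.85 CPM. In the 25 samples numbered 2, 3 and 4 (of which 2 tumour samples include a ds1 library), Bax stood at 8.15 to 43.7 CPM and Bak1 at 3.93 to 40.3 CPM, with no overlap with ds2 for either gene. The share of all genes that set ds2 apart in this way was not counted. Over all genes, the replicate number accounted for 84.1% of the first principal component. The 7 ds1 samples ran from 0.932 to 184 CPM for Bax and 0.225 to 36.6 CPM for Bak1. Over all 41 samples the correlation of their log2 CPM was -0.64 (samples share replicate numbers and depth class). The ds2 libraries were also the shallowest, with 2945638 to 5408375 counts, and the part of depth and sorting in these values was not tested.

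**Figure D4:**
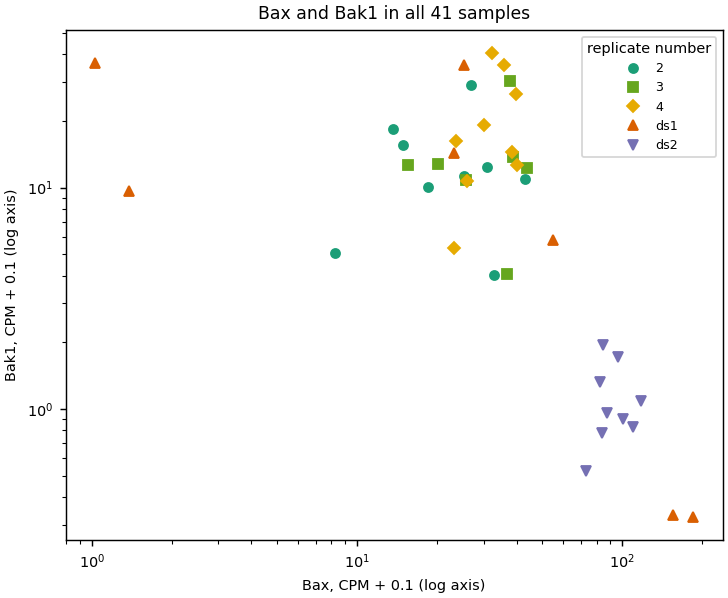
Bak1 against Bax, CPM plus 0.1 on log axes, in all 41 samples (colour and shape: replicate number). The 9 ds2 samples form a set of their own at high Bax (72.8 to 118 CPM) and low Bak1 (0.424 to 1.85 CPM), whatever their group. The share of all genes that set ds2 apart was not counted.

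Markers of other cell types moved with tissue. The 6 B cell markers summed to a median of 186 CPM in lymph node Tregs (1.90 to 655) and 17.3 CPM in tumour Tregs (3.85 to 65.6). The lymph node sample with the fewest B cell markers, WT ds1 at 1.90 CPM, held 506 CPM of Bcl2, and the one with the most, WT 2 at 655 CPM, held 228 CPM. The 6 melanoma markers ranged from 4.29 to 3407 CPM in tumour Tregs against 0.317 to 71.9 CPM in lymph node Tregs. The tumour sample with the fewest, N ds1 at 4.29 CPM, held 101 CPM of Pmaip1, 612 CPM of Bcl2a1b and 13.7 CPM of Bcl2, and the one with the most, WT 4 at 3407 CPM, held 69.4 CPM of Pmaip1, 251 CPM of Bcl2a1b and 67.7 CPM of Bcl2. The 6 dendritic cell markers had a median of 12.5 CPM in lymph node (0 to 153) and 38.8 CPM in tumour (16.2 to 442). The tumour sample with the fewest dendritic markers, HetNrp1def ds2 at 16.2 CPM, held 37.9 CPM of Pmaip1 and 104 CPM of Bcl2a1b, and the one with the most, HetNrp1def 4 at 442 CPM, held 51.5 and 162 CPM. The macrophage markers had a median of 26.3 CPM in lymph node (0 to 105) and 40.4 CPM in tumour (1.49 to 72.1), with 1 of 5 called higher. Neutrophil markers stayed at 7.25 CPM or below in Tregs. The part of these markers in the results was not tested.

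The second question was how WT Tregs compare with effector T cells of the tumour, the T cells that Tregs restrain. In tumour Tregs, Bcl2l1, Bcl2a1b, Bcl2a1d and Pmaip1 were higher and Bcl2 was lower than in effector T cells, where 4.1% of all genes were higher and 1.61% lower. In lymph node Tregs, Bcl2l1, Bcl2a1d and Pmaip1 were higher (1.69% of all genes) and no member was lower (0.102%). Both comparisons use the same 5 effector samples and are given side by side. Markers of other cell types differed here too. The dendritic markers summed to 0 to 9.07 CPM in effector T cells and the melanoma markers to 3.01 to 75.3 CPM, against 30.6 to 184 CPM and 6.58 to 3407 CPM in WT tumour Tregs. In the fit, 2 of 6 dendritic and 4 of 6 melanoma markers were higher in WT tumour Tregs and none of either list was called in lymph node Tregs. Their part in the results was not tested. The median log2 fold change over the 10 members was -0.05 in the first and 0.44 in the second, against 0.07 and -0.05 over all genes.

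Pmaip1 was nearly undetected in effector T cells, with 6, 4, 1, 4 and 0 reads in replicates 2, 3, 4, ds1 and ds2, or 0.186, 0.323, 0.0912, 0.432 and 0 CPM. The lowest WT tumour Treg sample held 50.4 CPM and the lowest WT lymph node Treg sample 0.645 CPM (9 reads), so neither group overlapped with effector T cells. The share of all genes without such overlap was not counted, here or for the members below. The fitted log2 fold changes of Pmaip1 were 9.10 (SE 1.08, adjusted p 1.3e-08) in tumour and 5.59 (SE 0.94, adjusted p 8.9e-05) in lymph node Tregs, and their size depends on the few effector reads. Each call was kept in 7 of 10 alternatives (2.06 to 9.64 in tumour, 1.57 to 5.72 in lymph node). Both calls were lost with double-sorted samples only and on the authors' log2 values. Bcl2l1 stood at 9.46, 0.242, 0, 0.972 and 6.29 CPM in the effector samples, in the same order. All WT tumour Treg samples (36.1 CPM or more) lay above these values, and the WT lymph node sample ds1 (0.793 CPM) lay among them. Its log2 fold changes were 4.15 (SE 0.99, adjusted p 0.0043) for tumour and 3.94 (SE 0.98, adjusted p 0.016) for lymph node Tregs. The lymph node call was lost without WT lymph node 3 (2.41, adjusted p 0.28), effector replicate 3 (0.061) or effector replicate 4 (0.078), in single-sorted samples only (4.49, adjusted p 0.068) and with the replicate number as a block (0.061).

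Bcl2a1d held 6.25, 10.5, 1.09, 1.62 and 2.00 CPM in effector T cells, below every WT Treg sample of either tissue (12.8 CPM or more). Its log2 fold changes were 4.74 (SE 0.80, adjusted p 3.3e-05) in tumour and 3.63 (SE 0.76, adjusted p 0.0024) in lymph node Tregs. Each call was kept in 6 of 9 alternatives (1.60 to 6.38 in tumour, 1.89 to 5.25 in lymph node). Both calls were lost with double-sorted samples only and on the authors' log2 values. Bcl2a1b held 27.5 to 105 CPM in effector T cells and 133 to 529 CPM in WT tumour Tregs, with log2 fold changes of 2.37 (adjusted p 0.00083) in tumour and 1.22 (adjusted p 0.28) in lymph node Tregs. The latter passed with the replicate number as a block (1.26, adjusted p 0.0053) and in single-sorted samples only (1.20, adjusted p 0.023). The tumour call of Bcl2a1b was kept in 6 of 9 alternatives (0.96 to 2.50), and lost with double-sorted samples only and on the authors' log2 values. The 4 A1 rows summed gave 2.77 (adjusted p 0.00011) and 1.64 (adjusted p 0.067).

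Bcl2 stood at 148, 219, 151, 413 and 266 CPM in effector T cells (replicates 2, 3, 4, ds1 and ds2), above all 5 WT tumour Treg samples. The effector samples overlapped with WT lymph node Tregs (228 to 506 CPM), which were higher in 5 of 5 same-numbered pairs, by 0.29 to 0.93 on the log2 scale. The log2 fold change was -2.54 (SE 0.50, adjusted p 0.00034) for tumour Tregs and 0.56 (2 SE to each side: -0.390 to 1.501; adjusted p 0.87) for lymph node Tregs. The direction turned in the authors' deposited log2 values, where limma gave 0.57 (adjusted p 0.91) for tumour Tregs. In that table the WT tumour ds2 column correlated at 0.26 with its own counts, within its replicate number and across genes, against 0.71 to 0.98 in the other 44 libraries. With that sample left out the value was 0.35 (adjusted p 0.88), still opposite to the counts. For lymph node Tregs the same table gave Bcl2 a higher value than effector T cells (1.89, adjusted p 0.048).

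Mcl1, Bcl2l11, Bbc3, Bax and Bak1 did not pass in either comparison with effector T cells. Mcl1, whose level was measured with the smallest error, gave -0.17 (-0.83 to 0.49) in tumour and 0.20 (-0.46 to 0.86) in lymph node Tregs, and in the authors' log2 values the tumour value was 0.29. Bcl2l11 gave -1.15 (-2.53 to 0.22) in tumour Tregs and was below its effector sample in 5 of 5 same-numbered pairs.

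**Figure D5:**
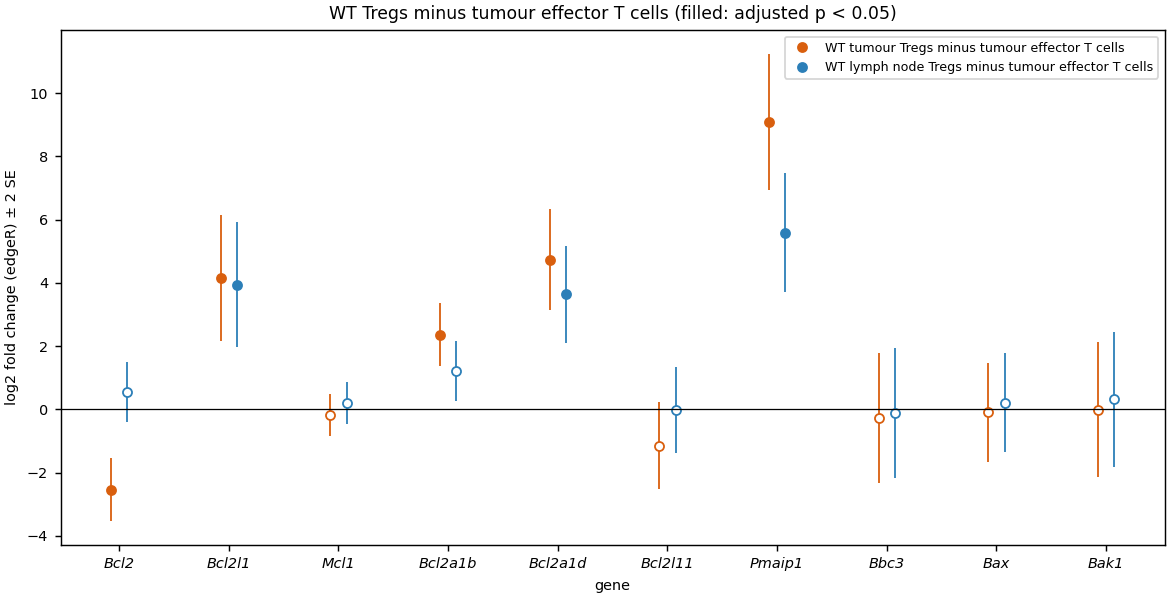
log2 fold change (edgeR) of WT tumour Tregs (orange) and WT lymph node Tregs (blue) over tumour effector T cells, with bars of 2 SE to each side. Filled points passed an adjusted p of 0.05: Bcl2, Bcl2l1, Bcl2a1b, Bcl2a1d and Pmaip1 in tumour, and Bcl2l1, Bcl2a1d and Pmaip1 in lymph node Tregs.

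The third question was whether the Nrp1 label changes the family. No member passed in any of 8 comparisons of labels, 4 in tumour and 4 in lymph node, nor did any gene: 0% were called in N, HetNrp1def and HetWT against WT and in HetNrp1def against HetWT in either tissue. In tumour Tregs, edgeR gave 291 to 376 of 14668 genes an unadjusted p below 0.05, with 0 members among them, and DESeq2 called 3 to 19 genes and 0 members. In lymph node Tregs the unadjusted counts were 599 to 952, and DESeq2 called 19 to 318 genes and 0 members.

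Bcl2 in tumour Tregs differed from WT on the log2 scale as follows: N by 0.34 (-0.61 to 1.28), HetNrp1def by 0.53 (-0.47 to 1.53) and HetWT by 0.16 (-0.84 to 1.16). Together these intervals reach from -0.84 to 1.53, beside a fall of 3.08 between tissues. Pmaip1 in tumour Tregs gave, against WT, a difference for N of -1.28 (-2.78 to 0.22), for HetNrp1def of -1.21 (-2.82 to 0.40) and for HetWT of -0.45 (-2.02 to 1.13). Means were 127 ± 135 CPM in the 5 WT samples and 52.1 ± 27.8 CPM in the 5 N samples (mean ± SD). In the heterozygous groups of 4 samples they were 54.7 ± 12.9 CPM (HetNrp1def) and 92.9 ± 56.01 CPM (HetWT), and 1 WT sample stood at 367 CPM. An unadjusted p below 0.05 was reached by 3 members, all in lymph node HetNrp1def against WT: Bcl2l1 (-2.23), Bcl2a1d (-1.77) and Bak1 (-2.78), with adjusted p-values of 0.72 to 0.75.

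The tissue change of N, HetNrp1def and HetWT against that of WT was also tested as an interaction, and 0% of genes and no member passed, with 455 to 614 genes and 0 members at an unadjusted p below 0.05 (DESeq2 called 10 to 25 genes and 0 members). For Bcl2 the differences in tissue change were 0.47 (-0.86 to 1.81), -0.10 (-1.52 to 1.31) and -0.29 (-1.71 to 1.13). For Pmaip1 they were -0.88 (-2.97 to 1.22), -0.80 (-3.02 to 1.43) and -0.997 (-3.22 to 1.22), intervals that leave room for differences of several fold.

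Other genes of the pathway were taken from 4 lists. Of 16 other BCL2 family genes, 13 were tested, and 2 rose and 1 fell between lymph node and tumour Tregs (median log2 fold change -0.06), where 5.84% of all genes rose and 5.37% fell. Bnip3, a hypoxia-induced BH3-like gene of mitophagy, rose by 4.44 (SE 0.65, adjusted p 4.8e-06), from a median of 5.80 CPM (0.0728 to 27.2) to 142 CPM (2.13 to 241). Bcl2a1c, a further A1 copy, rose by 2.78 (adjusted p 0.044) at a level of 14.3 CPM or below. Bmf, a BH3-only gene, fell by 2.75 (adjusted p 0.026) from a median of 2.10 CPM to 0.142 CPM. Against effector T cells, Bnip3 was higher in tumour Tregs (4.12, adjusted p 0.031), as was Bcl2a1c, which is at 0 in all 5 effector samples, and Bad was higher in lymph node Tregs (3.36, adjusted p 0.048).

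Downstream of the mitochondrion, 1 of 15 apoptosome, caspase and inhibitor genes rose between tissues, a share near the 5.84% of all genes. It was Apaf1, the scaffold of the apoptosome, at 1.40 (adjusted p 0.015), from a median of 26.2 to 90.4 CPM. Birc5, which encodes survivin and is best known as a gene of dividing cells, was higher than in effector T cells in both tissues, by 4.93 in tumour (adjusted p 0.00016) and 4.46 in lymph node (adjusted p 0.0013). The median log2 fold change of the list between tissues was 0.09.

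Of 12 death receptor genes and adaptors, 2 rose and 1 fell between tissues (median 0.08), against 5.84% and 5.37% of all genes. Fasl, the ligand of the death receptor Fas, rose by 2.82 (adjusted p 0.00037), from a median of 5.07 to 39.4 CPM. Tnfrsf1b, which encodes TNF receptor II, rose by 1.21 (adjusted p 0.00049), from 117 to 317 CPM. Faim3, which encodes an IgM receptor that B cells also express, was at a median of 21.7 CPM in lymph node (0 to 85.3) and at 0.636 CPM or below in tumour Tregs (log2 fold change -8.30, adjusted p 4.5e-08). B cell markers moved the same way, as given above, and their part in this value was not tested.

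Of 16 genes known to act upstream of the family, 3 rose and 1 fell between tissues (median 0.14), and the single fall is near the 5.37% of all genes that fell (5.84% rose). Hif1a, the oxygen-sensitive transcription factor, rose by 2.22 (adjusted p 3.7e-15), from 119 to 552 CPM in lymph node to 932 to 1737 CPM in tumour Tregs, with no overlap. Cdkn1a, the p53 target that encodes p21, rose by 2.58 (adjusted p 0.00093), while Trp53 itself stood at a median of 128 CPM in lymph node and 85.5 CPM in tumour and was not called. Il2rb, the shared chain of the IL-2 and IL-15 receptors, rose by 0.96 (adjusted p 0.0086). Foxo1, a transcription factor of resting T cells, fell by 1.12 (adjusted p 5.0e-06), from a median of 419 to 194 CPM. Against effector T cells, tumour Tregs were higher in Hif1a (3.57), Il2rb (6.68), Il2ra (6.03) and Cdkn1a (8.18) and lower in Foxo1 (-1.49) and in Il7r (-2.27), the receptor chain for IL-7, a cytokine known to maintain Bcl2. In lymph node Tregs, Il7r was lower (-1.89) and Il2ra (6.45) and Il2rb (5.38) were higher than in effector T cells.

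Genes whose log2 CPM followed that of a member most closely over the 41 samples were listed among 8494 genes, as a description. The samples share groups and replicate numbers, and no test was made. For Bcl2 they were Foxp1 (r 0.86), Ift80 (0.86) and Id3 (0.85). For Pmaip1 they were Rgs16 (0.88), Tnfrsf18 (0.87) and Klrg1 (0.86). Bcl2l1 was followed most closely by Anxa4 (0.89), Raph1 (0.83) and Anxa1 (0.81), Mcl1 by Ddx5 (0.85), Pabpc1 (0.84) and Eef1b2 (0.82), Bcl2a1b by Serinc3 (0.87), Srgn (0.86) and AI662270 (0.85), and Bcl2l11 by Usp16 (0.73), Xpo6 (0.72) and Thoc5 (0.71). Among the members themselves, Pmaip1 and Bcl2a1d had an r of 0.80, Bcl2a1b and Bcl2a1d 0.78, and Bcl2 and Pmaip1 -0.63.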

How the data were processed

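The authors deposited whole-number read counts per gene symbol. The submitters' processing notes name mm10, STAR, featureCounts and limma. Versions, annotation, strand setting and the treatment of shared reads were not given in the sources used here. The authors also deposited normalized, filtered log2 values for 10832 genes, used only as an alternative. The labels' protocols give 5000 Tregs per library, from a single sort (3 libraries per group) or a double sort (2), with SMARTer low-input amplification and Nextera XT libraries. Libraries within a group with chi-square per degree of freedom below 5 were summed (4 pairs); a summed pair kept the number 4.

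All 41 samples entered 1 fit in edgeR 4.0.16 (R 4.3.3; TMM, filterByExpr by group, robust quasi-likelihood, 32 residual degrees of freedom, no replicate block), with Benjamini-Hochberg adjustment over 14668 genes within each contrast and a threshold of 0.05. The tissue contrast over all labels is the mean of the 4 labels' contrasts. CPM use TMM-scaled library sizes; log2 CPM used a prior count of 1. Intervals are 2 SE to each side. Exon lengths came from GENCODE vM21. The code was also run on simulated counts, in which chosen genes changed in WT tumour samples only. Those counts held no effect of the replicate number, so that run cannot show how the fit handles it. DESeq2 1.42.0, limma 3.58.1 and the other alternatives are given in the closing section. All 10 members are named with their values. Genes most like a member are the 3 with the highest Pearson r among genes with a mean of at least 10 CPM. Called genes of the 4 pathway lists are named, with marker lists for other cell types. The members and lists were chosen with earlier results of these data known. Promoters came from RefSeq (9 of 10 members matched); the depth of 2945638 to 35787148 counts limits genes near 1 CPM most.

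Same-numbered samples deviated together in every pair (r over 0.1) in lymph node HetNrp1def against WT, HetWT against WT and HetNrp1def against HetWT only (lowest r 0.11, 0.13 and 0.13), a pairing read from the values, which no label states.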

Additional observations from a re-analysis of the deposited data

Results flagged for a closer look

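In 18 of 90 sets of samples (1 gene in 1 group), the highest sample stood far from the rest of its group, by the gap to the next sample over the group's range (Dixon's critical values). Chance gives about 1 in 20 sets for independent, normally distributed values, and these samples share replicate numbers. The rule was applied to CPM, which cannot fall below 0, so a low sample is seldom flagged. Bax in WT tumour ds1, at 1.28 CPM with the next sample at 30.9 CPM, was not flagged. All 18 flagged values were high and 12 of them were ds1 samples, whose part in the values was not tested. For Bcl2 they were 588 CPM in N lymph node ds2 (next sample 286), 1093 CPM in HetNrp1def lymph node ds1 (426) and 1028 CPM in HetWT lymph node ds1 (353). For Bcl2l1 they were 188.0 CPM in WT lymph node 3 (30.9) and 106 CPM in WT tumour 2 (55.9). Bcl2a1b stood at 228 CPM in WT lymph node ds1 (107), 290.0 CPM in N lymph node ds1 (116), 147 CPM in HetNrp1def lymph node ds1 (82.9) and 612 CPM in N tumour ds1 (203). Bcl2a1d stood at 284 CPM in WT tumour ds1 (88.7) and 393 CPM in N tumour ds1 (94.96). Pmaip1 stood at 28.3 CPM in HetNrp1def lymph node 2 (2.22), 367 CPM in WT tumour ds1 (74.7) and 101 CPM in N tumour ds1 (44.8). Bbc3 stood at 13.5 CPM in WT lymph node 4 (7.02), 8.39 CPM in N lymph node ds1 (3.41) and 21.4 CPM in HetNrp1def lymph node ds1 (5.42), and Bax at 118 CPM in N tumour ds2 (26.7).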

How the results depend on the processing

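Bcl2 kept its fall and its call between tissues over all labels in all 10 alternatives (-3.88 to -1.85). With double-sorted samples only, the members called were 1 over all labels, 0 in each of WT, N, HetNrp1def and HetWT, 1 in tumour Tregs against effector T cells and 0 in lymph node Tregs against them; fewer samples entered those fits. On the authors' log2 values (limma) the counts were 1 over all labels, 0 in WT, HetNrp1def and HetWT, 0 in tumour Tregs against effector T cells and 1 in lymph node Tregs against them; with WT tumour ds2 left out, an alternative chosen after seeing the data, they were 4, 0, 0, 0, 0 and 1. The cause was not tested. DESeq2 called 2 members in N and 4 in HetNrp1def, and the 45 libraries as deposited gave 2 in HetNrp1def, against 1 each. Leaving out 1 sample at a time gave 1 to 2 in WT (Pmaip1 lost) and 1 to 2 in HetNrp1def (Pmaip1 gained). With the replicate number as a block, 6 members were called over all labels, 3 in WT, 1 each in N, HetNrp1def and HetWT, 5 in tumour and 3 in lymph node Tregs against effector T cells and 0 between labels; in WT the block added Bcl2a1b (1.12, adjusted p 0.015). In the 3 comparisons where the numbers pair the samples the block changed no call.

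The sign of a member's log2 fold change turned in 31 fits that left out 1 sample and in 44 other fits. Of these only Bcl2 in tumour Tregs against effector T cells had passed the test, and no turned value passed. The cause was not tested. On the authors' log2 values the turned values were, in WT, Bcl2l1 (-0.30), Bcl2a1d (-0.30) and Bak1 (0.052, or 0.26 with WT tumour ds2 left out), Bcl2l11 in N (0.018) and HetWT (0.044), Bcl2 (0.57, 0.35 without that sample), Mcl1 (0.29, 0.32) and Bak1 (0.022 without that sample) in tumour Tregs against effector T cells, and Bcl2l11 (0.32) and Bak1 (-0.23) in lymph node Tregs against them. With double-sorted samples only they were Bbc3 in WT (1.01), Bak1 in N (-1.59), Bcl2a1b (-0.39), Bcl2l11 (1.21) and Bax (0.082) in HetWT, Bbc3 in tumour (0.81), and Bcl2l11 (0.87) and Bak1 (-1.83) in lymph node Tregs against effector T cells. With single-sorted samples only they were Bcl2l1 (-0.11) and Bax (0.38) in WT, Bcl2l11 (0.071) and Bax (-0.14) in N, Bbc3 in HetNrp1def (0.18), Bax (0.38) and Bak1 (0.80) in tumour, and Bbc3 (0.038) and Bax (-0.00012) in lymph node Tregs against effector T cells. Size factors turned Bbc3 in WT (0.10, DESeq2 0.091), Bak1 in tumour (0.0030, DESeq2 0.0031) and Bcl2l11 in lymph node Tregs against effector T cells (0.0088, DESeq2 0.0084). Bak1 in tumour Tregs against effector T cells also turned with the 45 libraries (8.2e-06) and with no filter (0.21), and the replicate block turned Bcl2l11 (0.024) and Bbc3 (0.12) in lymph node Tregs against them. Leaving out 1 sample at a time gave, in WT, -0.10 to 1.76 for Bcl2l1, -1.04 to 0.10 for Bbc3, -0.70 to 0.048 for Bax and -1.03 to 0.35 for Bak1, and in N -0.55 to 1.04 for Bax and -0.23 to 1.19 for Bak1. Against effector T cells it gave, in tumour Tregs, -0.36 to 0.0030 for Mcl1, -1.15 to 0.43 for Bbc3, -0.49 to 0.43 for Bax and -0.60 to 0.66 for Bak1, and in lymph node Tregs -0.31 to 0.40 for Bcl2l11, -0.52 to 0.77 for Bbc3, -0.14 to 0.74 for Bax and -0.22 to 1.01 for Bak1.

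Over the alternatives, all genes called ran from 78 to 2210 over all labels (1644 in the fit reported), 2 to 510 for WT (128), 3 to 389 for N (116), 0 to 833 for HetNrp1def (96), 1 to 262 for HetWT (35), 40 to 1620 in tumour (838) and 20 to 616 in lymph node Tregs (263) against effector T cells. DESeq2-style size factors in edgeR moved the median log2 fold change of all genes from -0.10 to -0.22 (HetNrp1def), -0.17 to -0.27 (HetWT), 0.09 to 0.21 (WT), 0.06 to 0.16 (N) and 0.07 to 0.19 (tumour Tregs against effector T cells), and the share of called genes that were higher from 53.1% to 30.9% in HetNrp1def and from 68.6% to 57.1% in HetWT. Low read counts limit Pmaip1, Bcl2l1 and Bcl2a1d in effector T cells, where every Pmaip1 value rests on 0 to 6 reads. There Bcl2l1 had 0 to 306 reads and Bcl2a1d 7 to 202, in libraries of 2945638 to 31329203 counts.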
